A study of Mus musculus with 8 samples.

Results

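The genes described here code for titin, for proteins of the Z-disc that anchor it and its actin partners, and for proteins thought to read stretch in the heart muscle cell. Mybpc3, which codes for a protein of the thick filament, was placed with them. The 9 genes were Ttn, Nebl, Actn2, Ldb3, Myoz2, Csrp3, Tcap, Ankrd1 and Mybpc3. They were chosen by name and found by their Entrez identifiers among the 27179 genes counted. All 9 passed the filter on low counts, as did 14966 genes in all. RNA came from neonatal cardiomyocytes (NCMs), the muscle cells freed from hearts of newborn C57Bl/6 J mice at postnatal day 0 (PND0). The dams of 4 libraries breathed filtered air (FA), and those of the other 4 breathed diesel exhaust (DE), with exposures that began at E0.5 of embryonic development and stopped at E17.5. Each library held the NCMs of 1 male heart, trimmed of atria and vessels, enzymatically dissociated and left on a plate so that fibroblasts could attach before the unattached cells were taken. Litters were not given in the labels, so animals of a group may share a dam.

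A sarcomere, the contractile unit of muscle, runs between a pair of Z-discs, where α-actinin crosslinks the actin filaments of neighbouring units. Titin spans from the Z-disc to the M-band in the middle of the sarcomere, acts as a molecular spring, and is held at the Z-disc by telethonin. Other proteins of the Z-disc bind α-actinin or titin and also move to the nucleus or carry signals, so that this structure is viewed as a place where load is sensed, and variants in several of these genes cause cardiomyopathy.

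Libraries held between 17943024 and 39839737 counts, of which the 9 genes took 1.24% to 1.68%. The counts were scaled by TMM, which sets library sizes by the bulk of genes, and are given as CPM, the normalized count in a library scaled to a common size. Each value rests on a large count, from 1872 for Tcap in FA replicate 4 to 257554 for Ttn in FA replicate 2, so that the spread between libraries, not counting error, limits its precision. Sample names also carried the number 11 or 12, whose meaning the labels do not state. All 4 FA libraries and DE replicates 1 and 7 carried the 11, and DE replicates 3 and 5 carried the 12, so values of the DE libraries are given for both numbers where they differ. A gene was called when edgeR's quasi-likelihood test gave an adjusted p of at most 0.05 (Benjamini-Hochberg over all tested genes) and the groups differed by 25% or more.

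On GRCm38.p6, 3 of the 9 genes lie on chromosome 2, namely Ttn (Entrez 22138) at chr2:76703980-76982557, Nebl (Entrez 74103) at chr2:17342673-17734949 and Mybpc3 (Entrez 17868) at chr2:91118114-91136516. The Z-disc genes lie apart, with Actn2 (Entrez 11472) at chr13:12269426-12340732, Ldb3 (Entrez 24131) at chr14:34526699-34590314, Myoz2 (Entrez 59006) at chr3:123006206-123035003 and Tcap (Entrez 21393) at chr11:98383811-98384953. The stretch-responsive pair is Csrp3 (Entrez 13009) at chr7:48830398-48848051 and Ankrd1 (Entrez 107765) at chr19:36111965-36119844. Counts cover whole genes, so exons and isoforms were not measured apart.

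Promoter sequence was available for 8 of the 9 genes in RefSeq on GRCm38.p6, in 13 windows from 250 bases before to 50 bases after a start site. The 3 windows printed belong to the gene called in DE, to the gene with the largest log2 fold change after TMM scaling, and to Ankrd1, a gene whose DE libraries separated by name number. Nebl also separated in this way, but has 4 start sites, and its windows are not printed. They lie on the minus strand at chr14:34588632-34588931 for Ldb3, chr2:76982498-76982797 for Ttn and chr19:36119795-36120094 for Ankrd1, and are written 5′ to 3′ with MCAT elements and CArG boxes in capitals.
Ldb3: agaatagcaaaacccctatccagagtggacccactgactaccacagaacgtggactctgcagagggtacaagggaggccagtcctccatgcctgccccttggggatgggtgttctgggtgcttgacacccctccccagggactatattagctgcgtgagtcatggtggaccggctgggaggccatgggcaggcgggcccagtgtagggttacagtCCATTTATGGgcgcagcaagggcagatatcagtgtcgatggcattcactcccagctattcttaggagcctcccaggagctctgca
Ttn: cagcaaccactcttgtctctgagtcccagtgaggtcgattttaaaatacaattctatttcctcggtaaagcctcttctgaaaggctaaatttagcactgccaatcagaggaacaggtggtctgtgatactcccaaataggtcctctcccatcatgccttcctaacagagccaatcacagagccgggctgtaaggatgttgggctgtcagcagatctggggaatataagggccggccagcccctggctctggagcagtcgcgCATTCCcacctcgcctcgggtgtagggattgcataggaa
Ankrd1: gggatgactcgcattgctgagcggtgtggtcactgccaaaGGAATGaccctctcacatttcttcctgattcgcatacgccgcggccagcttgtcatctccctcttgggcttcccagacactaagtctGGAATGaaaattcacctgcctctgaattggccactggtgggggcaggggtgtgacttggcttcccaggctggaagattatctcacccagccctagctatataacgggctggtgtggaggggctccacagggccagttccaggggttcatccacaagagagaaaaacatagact
An MCAT element, here CATTCC on either strand, is the motif of TEAD factors, and the CArG box is the motif of serum response factor. Ankrd1 held 2 MCAT elements, at -210 and -123 from the start site, and Ttn held 1 at position 12 past it. Ldb3 held 1 CArG box at -35. The same box lies at -109 from another start site of Ldb3, whose window overlaps this one and is not printed. Among 32851 RefSeq promoters of this length, 14.7% held an MCAT element and 1.6% a CArG box. Over all windows of the 8 genes, 3 genes held an MCAT element and 2 a CArG box, with Nebl, which has 4 windows, in both counts. An E-box (CANNTG) stood in windows of 7 of the 8 genes and in 72.3% of all promoters, a GATA motif (GATAA) in windows of 4 of the 8 and in 25.4%, and a TATA box (TATAAA) in 0 of the 8 and in 13.6%. Both strands were searched, and no matches overlapped in the 3 printed windows. A match is a description of letters and does not show that a factor binds.

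Per kilobase of the longest annotated transcript, the 9 genes spanned a wide range of RNA levels in these NCMs. Mybpc3, which codes for cardiac myosin-binding protein C of the thick filament, stood first with 947.6 ± 59.5 CPM per kb over the 8 libraries (SD, n = 8). Actn2, α-actinin of the Z-disc, followed with 860.2 ± 75.4 CPM per kb, and the ranges of these 2 genes over libraries overlapped, although Mybpc3 was above Actn2 in 8 of 8 libraries. Ankrd1 came next with 542.1 ± 119.2 and Csrp3 with 317.4 ± 51.2 CPM per kb, and these 2 ranges did not overlap. Ldb3 had 182.7 ± 31.3 and Myoz2 161.3 ± 19.3 CPM per kb, and this pair was not separated, since Ldb3 was above Myoz2 in only 5 of 8 libraries. Tcap had 127.4 ± 26.8 CPM per kb. Ttn, despite rank 17 among all genes by CPM, had only 42.1 ± 16.4 CPM per kb once its transcript of 106.82 kb was taken into account, and Nebl was lowest with 19.2 ± 8.18 CPM per kb. A level per length of the longest transcript is an approximation where shorter isoforms are made, as for Ttn and Nebl, and counts per gene do not separate isoforms.

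**Figure D1:**
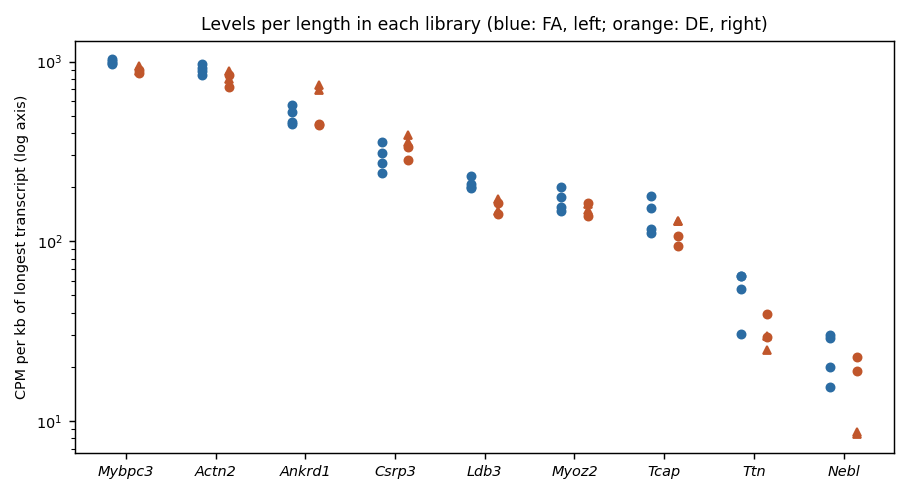
Level of each of the 9 genes in each library, in CPM per kb of the longest transcript, on a log axis. Circles carry the name number 11 and triangles 12, with FA in blue on the left and DE in orange on the right of each gene; Mybpc3 leads at 947.6 and Nebl closes at 19.2 CPM per kb on average over 8 libraries.

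To ask whether in utero exposure to DE moved these genes, FA and DE libraries were compared in one fit over all genes. Of the 9 genes, 1 was called, and it was lower in DE. This was 11.1% of them, against 5.8% of all tested genes called in either direction, 2.22% called lower and 3.58% called higher. The log2 fold change (DE minus FA, so that a negative value is lower in DE) was below 0 for 7 of the 9 genes, with a median of -0.155, against a median of 0.004 over all tested genes. FA and DE ranges in CPM were separate for 2 of the 9 genes, Ldb3 and Mybpc3, and for 14.7% of all tested genes.

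**Figure D2:**
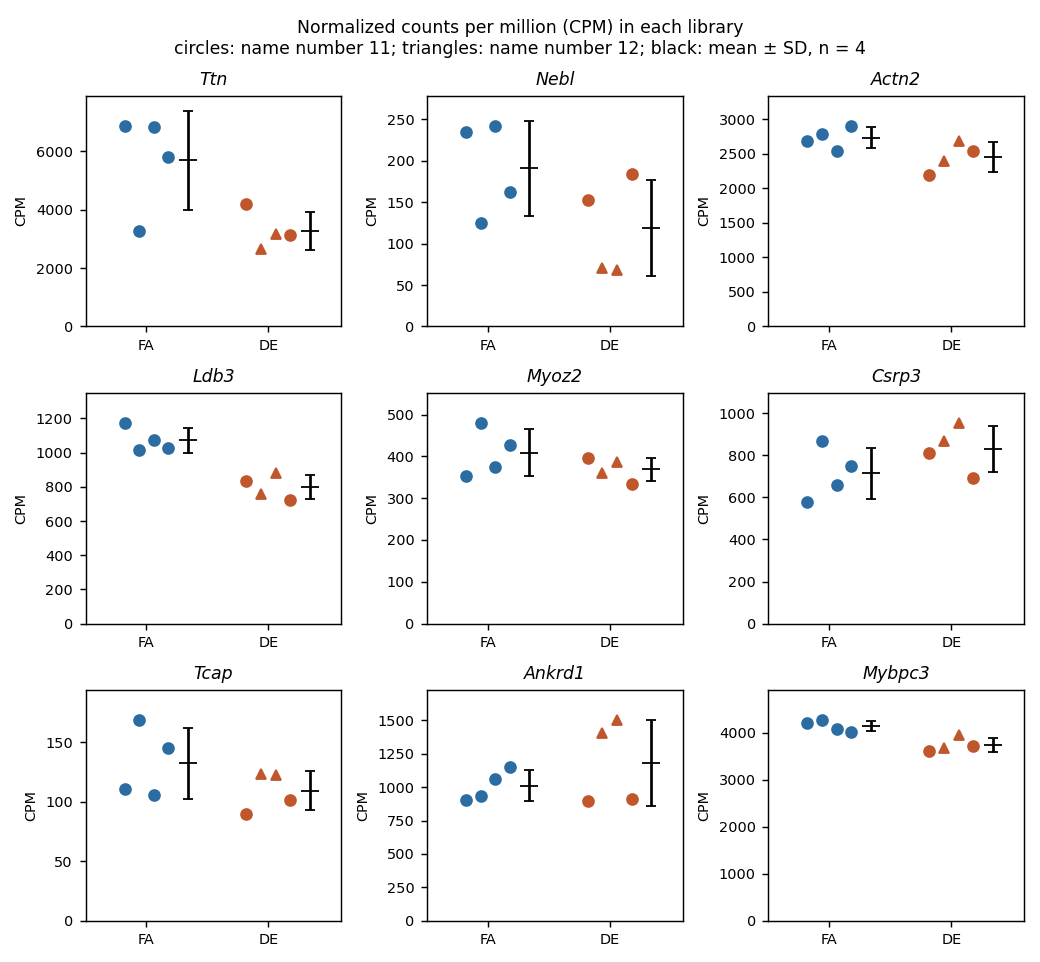
Normalized CPM of each of the 9 genes in every library (blue FA, orange DE; circles name number 11, triangles 12), with the mean ± SD of 4 libraries in black. Ldb3 and Mybpc3 show no overlap between groups, Ttn in FA spreads from 3270 to 6882 CPM, and the triangles of DE stand apart from its circles for Nebl, Csrp3, Tcap and Ankrd1.

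Ldb3 fell in DE. It codes for ZASP, also called Cypher, a PDZ and LIM domain protein that binds α-actinin at the Z-disc. Its levels were 1174, 1016, 1071 and 1025 CPM in FA replicates 2, 3, 4 and 6, and 834, 757.3, 881.1 and 724.3 CPM in DE replicates 1, 3, 5 and 7. Every DE library was below every FA library, and the DE libraries of both name numbers were alike, with means of 779.2 CPM for 11 and 819.2 CPM for 12. The group means were 1072 ± 72.3 and 799.2 ± 71.3 CPM (SD, n = 4), a log2 fold change of -0.42 with a standard error of 0.099 and a 95% interval of -0.64 to -0.21 (edgeR's quasi-likelihood test, adjusted p = 0.034). The call was close to the threshold, and it was lost without FA replicate 2 (-0.38, adjusted p = 0.113), FA replicate 3 (-0.45, 0.0542), FA replicate 4 (-0.43, 0.0972), DE replicate 3 (-0.40, 0.105) or DE replicate 7 (-0.39, 0.0617), while the fold change kept its direction throughout. With the name number as a term it was also lost (-0.46, adjusted p = 0.0745). Since no FA library carries 12, this fit takes its exposure estimate from DE replicates 1 and 7 against FA.

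α-Actinin itself and its partner calsarcin-1 did not pass the test. Actn2 had 2681, 2789, 2547 and 2907 CPM in the FA libraries and 2186, 2397, 2683 and 2544 CPM in the DE libraries. The groups overlapped, and the log2 fold change was -0.155 (standard error 0.098, interval -0.37 to 0.06, adjusted p = 0.341 by edgeR). Myoz2 codes for calsarcin-1, which ties the phosphatase calcineurin to α-actinin. Its levels of 353.4, 480.1, 375.4 and 427.4 CPM in FA enclosed 3 of the 4 DE values of 395.2, 359.1, 386.6 and 334.3 CPM (log2 fold change -0.15, standard error 0.114, interval -0.40 to 0.10, adjusted p = 0.433 by edgeR). Both intervals include 0 after TMM scaling.

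Nebl codes for nebulette, the cardiac relative of nebulin that lies along the actin filament near the Z-disc. Its levels were 235.1, 124.5, 242.5 and 162.1 CPM in FA and 152.4, 70.4, 68.3 and 183.6 CPM in DE. The lowest 2 libraries were DE replicates 3 and 5, the ones with name number 12, and the other DE libraries lay within the FA range. Over all 4 DE libraries the log2 fold change was -0.69, with a standard error of 0.324 and an interval of -1.40 to 0.02 (adjusted p = 0.208 by edgeR), and with the name number as a term it was -0.19 (adjusted p = 0.73). In a model with 3 groups, chosen after the data were seen, DE libraries of number 12 had a mean of 69.3 CPM and those of number 11 a mean of 168.0 CPM, a log2 difference of -1.28 that passed edgeR's quasi-likelihood test (standard error 0.264, adjusted p = 0.041).

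Ttn had the largest log2 fold change of the 9 genes after TMM scaling and was not called. Its levels were 6882, 3270, 6837 and 5815 CPM in FA and 4189, 2640, 3177 and 3126 CPM in DE. FA replicate 3 lay among the DE libraries, and the other 3 FA libraries were above every DE library. The means were 5701 ± 1694 and 3283 ± 650.5 CPM (SD, n = 4), a ratio of 0.576, and the log2 fold change was -0.80 (standard error 0.219, interval -1.28 to -0.32, adjusted p = 0.0562 by edgeR). Ttn was called without FA replicate 3 (-0.99, adjusted p = 0.0116), without DE replicate 1 (-0.94, adjusted p = 0.0344) and by DESeq2 (-0.80, adjusted p = 0.007). It was farther from the threshold without FA replicate 2 (-0.69, adjusted p = 0.161), FA replicate 4 (-0.70, 0.148) or DE replicate 3 (-0.71, 0.158), and with the name number as a term (-0.64, 0.216).

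Tcap codes for telethonin, the small protein that joins the ends of titin molecules at the Z-disc. It was measured at 110.5, 168.5, 105.6 and 144.7 CPM in FA and 89.6, 123.3, 122.1 and 101.8 CPM in DE. The highest 2 libraries were FA replicates 3 and 6, but FA replicates 2 and 4 lay within the DE range, and the log2 fold change of -0.28 did not pass (standard error 0.162, interval -0.63 to 0.08, adjusted p = 0.307 by edgeR). The proteins of Ttn and Tcap bind each other. The FA libraries with the highest Ttn, replicates 2 and 4, had the lowest Tcap in FA, while both genes were above their FA mean in replicate 6.

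Libraries also differed in the level of long against short transcripts in general. Genes were divided into 10 groups of equal size by the length of their longest transcript, and the median log2 deviation of a library from the mean of all 8 was taken in each. The longest minus the shortest group was 0.588 in FA replicate 2 and 0.50 in FA replicate 4, -0.26 in FA replicate 3 and -0.07 in FA replicate 6. In DE it was 0.136 and 0.152 in replicates 1 and 7, and -0.445 and -0.567 in replicates 3 and 5, which carried name number 12. Ttn, with a transcript of 106.82 kb, deviated by 0.71, -0.36, 0.70 and 0.47 in the FA libraries and by -0.01, -0.67, -0.41 and -0.43 in the DE libraries. The 57 other tested genes of at least 15 kb had median deviations of 0.497, -0.16, 0.497 and -0.03 in FA and 0.068, -0.39, -0.48 and 0.043 in DE. Ttn thus followed the long genes in sign in FA replicates 2, 3 and 4 and DE replicates 3 and 5, lay above them in FA replicate 6 and below them in DE replicate 7, and was near 0 in DE replicate 1.

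**Figure D3:**
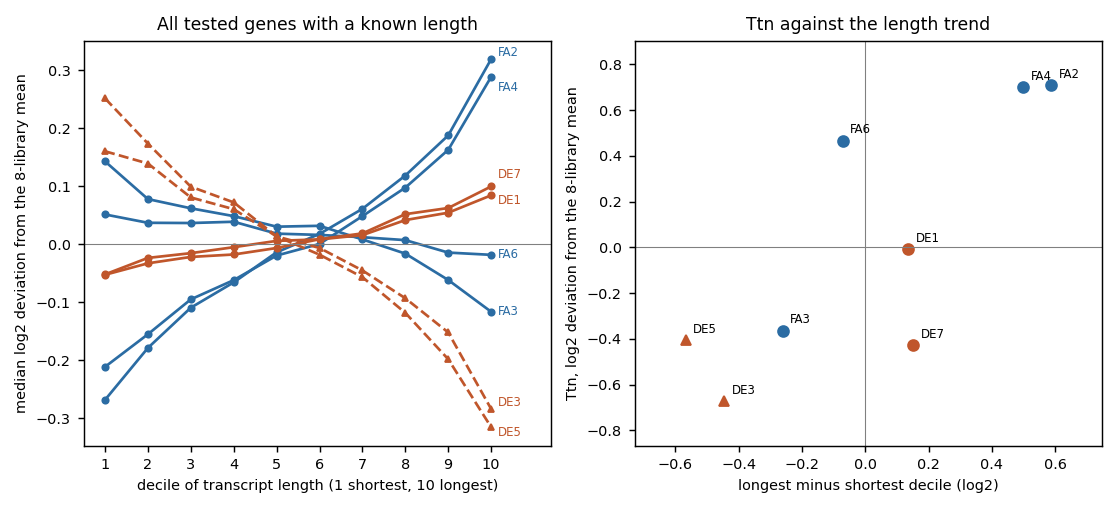
Left, median log2 deviation of each library from the mean of the 8 libraries, by decile of transcript length; right, the deviation of Ttn against the longest minus the shortest decile, 1 point per library (blue FA, orange DE; dashed lines and triangles carry name number 12). FA replicates 2 and 4 rise with length to a difference of 0.588 and 0.50, DE replicates 3 and 5 drop to -0.445 and -0.567, and Ttn is high in FA replicates 2 and 4 and low in FA replicate 3 and DE replicates 3 and 5, as long genes are, but is high in FA replicate 6, near 0 in DE replicate 1 and low in DE replicate 7.

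When offsets removed the trend of each library with transcript length and GC content, the differences of the longest and of the shortest of these genes moved in opposite ways. With these offsets 11.1% of the 13851 genes of known length were called, against 6.12% of the same genes without offsets. Ttn then had 5025, 3643, 5011 and 5127 CPM in FA and 4227, 3455, 3858 and 3708 CPM in DE, a log2 fold change of -0.31 with an interval of -0.55 to -0.06 (adjusted p = 0.0887 by edgeR). FA replicate 3 still lay within the DE range. Tcap, whose transcript has 0.95 kb, had 137.8, 154.1, 127.3 and 154.2 CPM in FA and 91.7, 98.1, 94.7 and 110.6 CPM in DE. Every DE library was then below every FA library, and the gene was called at a log2 fold change of -0.54, below 0 (standard error 0.089, adjusted p = 0.00393 by edgeR). Ldb3 stayed called at -0.36 (standard error 0.095, adjusted p = 0.0294), so that 2 of the 9 genes were called with offsets. Actn2 (-0.24, interval -0.43 to -0.04, adjusted p = 0.0971) and Nebl (-0.50, interval -0.90 to -0.10, adjusted p = 0.0892) were not called, although their intervals lay below 0. Only 3 tested genes, Ttn among them, had transcripts over 30 kb, so the offset applied to Ttn rests on the edge of the fitted curve.

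**Figure D4:**
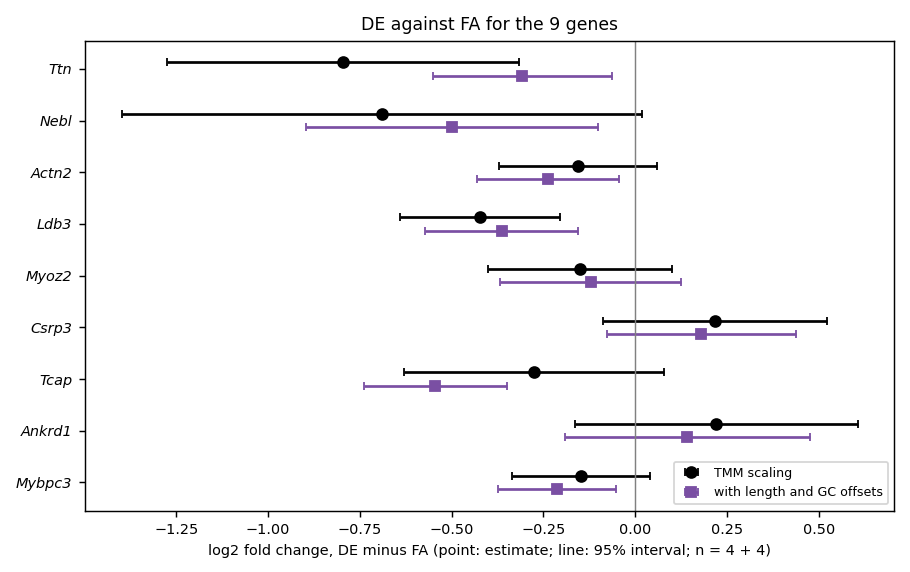
Log2 fold change (DE minus FA) of the 9 genes with its 95% interval, over 4 FA and 4 DE libraries, after TMM scaling (black circles) and with length and GC offsets (purple squares). Ttn moves from -0.80 to -0.31 and Tcap from -0.28 to -0.54, while Ldb3 lies at -0.42 and -0.36.

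The 2 genes known as stretch sensors had fold changes above 0 and did not pass the test between exposures. Csrp3 codes for muscle LIM protein, which is found at the Z-disc and in the nucleus. Its levels were 580, 866.3, 660.6 and 749.4 CPM in FA and 809.5, 866.3, 954.5 and 691.9 CPM in DE, with overlapping groups, for which the log2 fold change was 0.22 (standard error 0.139, interval -0.09 to 0.52, adjusted p = 0.347 by edgeR). Ankrd1 codes for CARP, an ankyrin repeat protein that binds the spring region of titin and also enters the nucleus. It had 902, 931.8, 1058 and 1152 CPM in FA and 896, 1406, 1503 and 909.9 CPM in DE. The DE libraries fell into a low and a high pair, of which the low pair had name number 11 and the high pair number 12. In the low pair, DE replicate 1 was just below and DE replicate 7 just above the lowest FA library, and both libraries of the high pair were above every FA library. The log2 fold change over all DE libraries was 0.22 (standard error 0.176, interval -0.16 to 0.61, adjusted p = 0.451 by edgeR), and it was -0.16 for the DE libraries of number 11 alone (adjusted p = 0.557).

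Between DE libraries of the 2 name numbers, Ankrd1 was higher with number 12 by 0.69 on the log2 scale (standard error 0.147, adjusted p = 0.0415 by edgeR), with means of 1455 and 903 CPM. Ankrd1 and Nebl were the 2 of the 9 genes called in this comparison, which was chosen after the data were seen and in which 2.06% of tested genes were called. In Csrp3 and Tcap both libraries of number 12 were also above both of number 11, with log2 differences of 0.28 (adjusted p = 0.36) and 0.36 (adjusted p = 0.294) that did not pass. With length and GC offsets both stayed called, Ankrd1 at 0.63 (adjusted p = 0.0345) and Nebl at -0.735 (adjusted p = 0.0384), where 1.13% of genes were called. Each number holds only 2 DE libraries, and no FA library carries 12, so what the number stands for and an unequal response to DE cannot be told apart.

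Mybpc3 had the smallest spread of the 9 genes between libraries of a group, with a coefficient of variation of 2.76% in FA and 3.93% in DE. Its levels were 4203, 4274, 4093 and 4016 CPM in FA and 3615, 3689, 3955 and 3715 CPM in DE. The groups did not overlap, and the difference was small, with means of 4147 ± 114.3 and 3743 ± 147.2 CPM (SD, n = 4), a ratio of 0.903. The log2 fold change of -0.15 did not pass (standard error 0.086, interval -0.335 to 0.04, adjusted p = 0.30 by edgeR), nor did that of -0.21 with offsets (adjusted p = 0.0763).

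Markers of cell types were compared beside these genes. The summed CPM of 10 cardiomyocyte markers, Tnnt2, Tnni3, Myh6, Actc1, Myl2, Myl3, Ryr2, Pln, Nkx2-5 and Gata4, ran from 58640 to 66206 in FA and from 46770 to 55888 in DE, and 2 of them, Myh6 and Pln, fell, where 2.22% of all tested genes fell. Myh6, α-myosin heavy chain, was the most abundant of them, and without it the sums overlapped, at 35536 to 42574 CPM in FA and 32042 to 40468 CPM in DE. Their median log2 fold change was -0.175, beside -0.155 for the 9 genes. The summed CPM of 10 fibroblast markers ran from 2471 to 4285 in FA and from 4419 to 7462 in DE, and 3 of them, Col1a1, Dcn and Dpt, rose, where 3.58% of all tested genes rose. Skeletal muscle markers summed to 7.78 to 11.3 CPM over all libraries, with Myod1 at 0 in each. Smooth muscle and pericyte markers summed to 1161 to 1816 CPM in FA and 825.2 to 1257 CPM in DE. Without Acta2, the most abundant of them, the sums were 178.0 to 266.3 CPM in FA and 187.0 to 336.7 CPM in DE. The median log2 fold change of this list was 0.105. Among the lists for endothelial, smooth muscle and pericyte, leukocyte, erythroid, atrial and mesothelial cells, Slc4a1 of erythroid cells was the 1 gene called, where 5.8% of all tested genes were called. In bulk samples, fewer cardiomyocytes and less RNA per cardiomyocyte cannot be told apart, and the part of the marker shift in the result for Ldb3 was not tested.

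Genes related in function were described by lists. Of 25 other Z-disc genes, 20 had a fold change below 0, with a median of -0.146, and 2 were called, 8.0% against 5.8% of all tested genes. Both fell in DE. Xirp2 codes for a Xin repeat protein that binds actin filaments. It had 52.0, 33.2, 57.8 and 52.8 CPM in FA and 33.8, 27.3, 25.2 and 19.8 CPM in DE (log2 fold change -0.88, standard error 0.189, adjusted p = 0.0247 by edgeR). Synpo2 codes for an actin-binding Z-disc protein and had 41.6, 27.0, 36.0 and 33.5 CPM in FA and 28.6, 18.2, 16.7 and 21.5 CPM in DE (-0.70, standard error 0.179, adjusted p = 0.0442). For each of these 2 genes FA replicate 3 was the lowest FA library and DE replicate 1 the highest DE library, and the groups overlapped by these alone. The call of Xirp2 was lost without FA replicate 2, FA replicate 4, DE replicate 3 or DE replicate 5 (adjusted p from 0.0524 to 0.0791) and with the name number as a term (-0.86, 0.0744). That of Synpo2 was lost on leaving out each library except FA replicate 3 or DE replicate 1 (adjusted p from 0.0651 to 0.139), with library totals alone (-0.63, 0.0594) and with the name number as a term (-0.46, 0.181). Des, the intermediate filament desmin and the most abundant gene of the list that was not called, had 985.5 ± 128.1 CPM in FA and 920.0 ± 67.7 CPM in DE (-0.10, adjusted p = 0.602). With offsets 2 of the 25 were called, 8.0% against 11.1% of all genes in that fit, namely Synpo2 (-0.52, adjusted p = 0.00805) and the related Xirp1 (-0.40, adjusted p = 0.0185), while Xirp2 was not (-0.54, adjusted p = 0.0799). Xirp1 was singled out after its values were seen.

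Titin's other end lies in the M-band, and its kinase region is linked to protein turnover. Of 14 genes of the M-band and of titin kinase signalling, 11 had a fold change below 0, with a median of -0.246. By edgeR's quasi-likelihood test 0 were called, with 4 at an unadjusted p under 0.05, as were 25.6% of all tested genes. DESeq2 called 2, Myom1 and Nbr1, both lower, and 10.7% of all genes it tested. Myom1 codes for myomesin, which crosslinks myosin filaments, and had 1770, 1640, 1840 and 1707 CPM in FA and 1495, 1189, 1335 and 1481 CPM in DE (-0.34, standard error 0.102, adjusted p = 0.072 by edgeR). Its groups did not overlap. With offsets, Nbr1 (-0.35, adjusted p = 0.012), an autophagy receptor bound by titin kinase, and Trim63 (-0.47, adjusted p = 0.0285), the ubiquitin ligase MuRF1, were called lower, where 11.1% of all genes were called; both were singled out after their values were seen.

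Among 17 genes of titin splicing and of sarcomere assembly, 12 had a fold change below 0 (median -0.128) and 1 was called, 5.88% against 5.8% of all tested genes. This gene was Rbm20, which codes for the main regulator of titin splicing, and it fell in DE. It had 553.6, 451.1, 476.6 and 383.2 CPM in FA and 358.2, 265.8, 297.5 and 327.7 CPM in DE. The groups did not overlap. The difference on the log2 scale was -0.58 (standard error 0.131, adjusted p = 0.0301 by edgeR), and with offsets -0.585 (adjusted p = 0.00632). Without FA replicate 2 the call was lost (-0.485, adjusted p = 0.0976), as it was without FA replicate 3, FA replicate 4, DE replicate 3 or DE replicate 5, and with the name number as a term (-0.44, adjusted p = 0.132). Splicing of Ttn itself was not measured by counts per gene. Hspb7, a small heat shock protein of the thin filament and the most abundant gene of the list not called, had 1432 ± 174.9 CPM in FA and 1267 ± 176.6 CPM in DE (-0.18, adjusted p = 0.394). With offsets 2 of the 17 were called, where 11.1% of all genes were, namely Rbm20 and Mef2d (-0.53, adjusted p = 0.024), a transcription factor of muscle genes that was singled out after its values were seen.

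Of 12 genes known to respond to mechanical load in heart muscle, 7 had a fold change above 0 (median 0.067) and 1 was called, 8.33% against 5.8% of all tested genes. Myh7 codes for β-myosin heavy chain, the slow myosin of the fetal mouse ventricle. It rose in DE, with 10304, 9338, 11223 and 9199 CPM in FA and 14174, 13512, 15520 and 14735 CPM in DE. All DE libraries were above all FA libraries, of both name numbers alike (log2 fold change 0.53, standard error 0.102, adjusted p = 0.0157 by edgeR), and it was called without any 1 of the 8 libraries. The call was lost with the name number as a term (0.53, adjusted p = 0.0512) and in libraries of number 11 (0.525, 0.0724). Both of these fits set only DE replicates 1 and 7 against FA. It was also lost with the 25% difference built into the test (adjusted p = 0.222). Postn codes for the matrix protein periostin, is made by fibroblasts and is also on the fibroblast list; it had 727.2 ± 212.1 CPM in FA and 1182 ± 249.3 CPM in DE (0.70, adjusted p = 0.0703). With offsets, which called 11.1% of all genes fitted, 3 of the 12 genes were called, Myh7 (0.57, adjusted p = 0.00326) and Postn (0.88, adjusted p = 0.0107) higher and Nppa (-1.01, adjusted p = 0.00966), which codes for atrial natriuretic peptide and was singled out after its values were seen, lower.

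Of 18 listed paralogs of the 9 genes, 16 were tested. A fold change above 0 was found for 12 of them, with a median of 0.147, and for 7565 of all 14966 tested genes. Of them 0 were called by edgeR's quasi-likelihood test, with 4 at an unadjusted p under 0.05, and DESeq2 called 2, Neb lower and Csrp2 higher. Over all genes tested these shares were 25.6% and 10.7%. With offsets 0 were called, where 11.1% of all genes were, 7 of the 16 had a fold change below 0, and the median was 0.026. The most abundant of them was Pdlim5, a PDZ and LIM domain protein like Ldb3, with 618.7 ± 16.8 CPM in FA and 549.3 ± 53.9 CPM in DE (-0.17, adjusted p = 0.284).

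**Figure D5:**
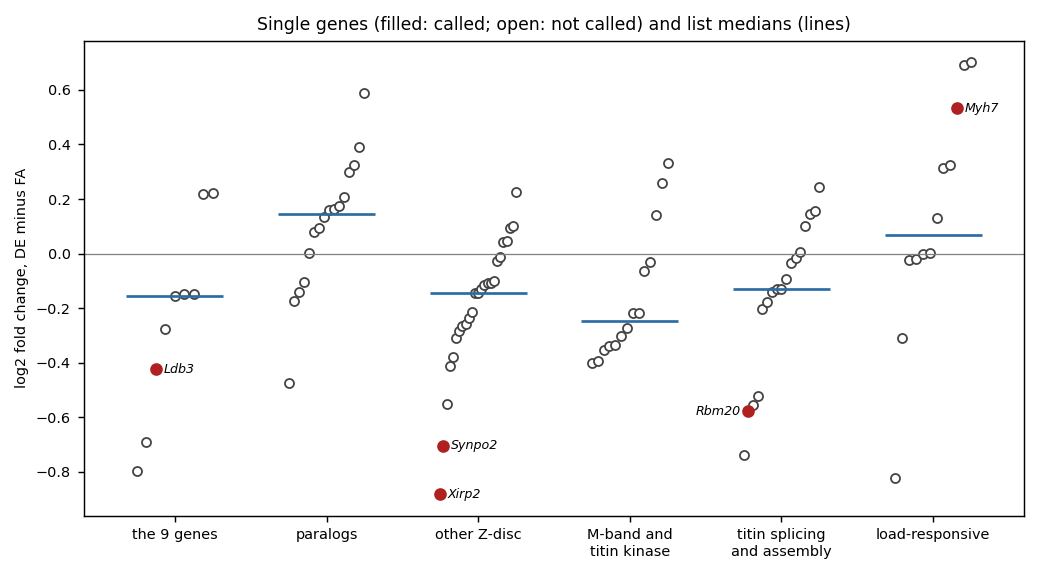
Log2 fold change (DE minus FA) of each tested gene of the 9 genes and of 5 other lists; filled points were called by edgeR's quasi-likelihood test, open points were not, and lines are list medians. Ldb3, Synpo2, Xirp2 and Rbm20 are the filled points below 0 and Myh7 the one above; medians run from -0.246 for M-band and titin kinase genes to 0.147 for paralogs.

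The genes whose levels ran most like those of the 9 over the 8 libraries were found by Pearson's r of log2 CPM among 9125 genes whose mean reached 10 CPM. All points share the same libraries, depth and length trend, so these values are descriptions. Ttn ran most closely with Prkdc (r = 0.983), Tasor (0.973) and Pds5b (0.971), whose transcripts have 12647, 7590 and 7417 bases. Nebl ran with Ccdc186 (0.998), Cnot6 (0.998) and Nupl1 (0.997), and Ldb3 with Eps15l1 (0.982), Cand2 (0.98) and Sec24c (0.976). For Ankrd1 the closest were Spsb4 (0.957), Pgam1 (0.948) and G3bp1 (0.934). The closest to Tcap was Galt (0.988), to Csrp3 Rps18 (0.984), to Myoz2 Glrx (0.983), to Mybpc3 Dlst (0.979) and to Actn2 Pdhx (0.974). Within the 9 genes the highest r was that of Ldb3 with Mybpc3 (0.874) and the lowest that of Nebl with Csrp3 (-0.897), again over 8 libraries.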

How the data were processed

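RNA of NCMs from 4 FA and 4 DE neonates was sequenced as stranded, poly-A selected libraries. According to the methods of the study, the authors aligned reads to mm10 and an Ensembl reference transcriptome with TopHat, marked duplicates with Picard without removing them, realigned with GATK and obtained fragment counts from featureCounts. The labels also name FastQC and Cufflinks. The deposited table holds raw, unscaled counts by Entrez gene. The gene models used for counting, the strand option and the handling of multimapping reads are not given in the sources used here, and these could move paralogs and overlapping genes. The methods give 1 animal fewer per group than the 4 FA and 4 DE libraries analysed here, and which libraries are the further ones is not stated.

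Entrez identifiers were matched to symbols through RefSeq genes of GRCm38.p6 (25275 of 27179 matched, all 9 genes among them). Genes kept by filterByExpr (minimum count 10) were scaled by TMM and tested with edgeR 4.0.16 in R 4.3.3 (glmQLFit and glmQLFTest), with exposure as the only term, Benjamini-Hochberg adjustment over 14966 genes, and thresholds of 0.05 and 25% as in the methods of the study. The biological coefficient of variation was 15.95%. Intervals are 95% intervals of the fitted log2 fold change. Offsets were natural splines (5 degrees of freedom) of each library on log transcript length and on GC content, known for 92.55% of tested genes. Alternatives also used DESeq2 1.42.0 and limma 3.58.1. The code was tested on simulated counts.

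The 9 genes and all lists were chosen with earlier results of these data known. Lists were written from general knowledge. Of each list, called genes (5 or fewer) and the most abundant gene not called are named; for each of the 9 genes, the genes with the highest r over libraries (prior count 2) were found. Since litters are not given, p-values measure the spread between these animals only.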

Additional observations from a re-analysis of the deposited data

Results flagged for a closer look

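Nebl and Ankrd1 differed within the DE group between libraries of the 2 name numbers, by a test of that difference in a model with 3 groups. The response of Nebl, taken as the log2 difference of DE from FA, was -1.277 for number 12 minus number 11, and that of Ankrd1 was 0.688. With length and GC offsets these were -0.735 and 0.626. The 2 libraries of number 12, DE replicates 3 and 5, also had the lowest level of long against short transcripts of the 8 libraries, at -0.445 and -0.567 on the log2 scale. Both DE libraries of number 12 were below both of number 11 for Nebl and above both for Ankrd1. Number 12 has no FA library, so these values compare DE libraries alone. Among the 18 groups of 4 libraries examined for the 9 genes, 0 had a library far from the other 3 by Dixon's criterion.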

How the results depend on the processing

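Of the 9 genes 1 was called, against 2 by DESeq2, by the likelihood ratio test, without a filter and with length and GC offsets, 0 with the 25% difference built into the test, with the name number as a term and in libraries of number 11 only, and 3 for DE libraries of number 12 against FA, an alternative added after the data were seen. Leaving out each library gave 0 to 2. Over all genes, 868 calls became 1620 by DESeq2, 1603 by the likelihood ratio test, 114 with the 25% built in, 448 with the name number as a term, 260 in libraries of number 11, 1534 with offsets, 3240 for DE libraries of number 12 against FA, and 237 to 1168 without a library. In the 5 other lists, 4 calls became 13 by DESeq2, 12 by the likelihood ratio test, 0 with the 25% built in, 0 with the name number as a term, 0 in libraries of number 11, 9 with offsets, 23 for DE libraries of number 12 against FA, and 1 to 7 without a library. Over 22 alternatives Ldb3 was called in 13, with log2 fold changes from -0.473 to -0.353 and adjusted p from 0.00162 to 0.538. Ttn was called in 6, from -0.99 to -0.308, with adjusted p from 0.007 to 0.252. Ankrd1 changed sign in 2, at -0.163 with the name number as a term and -0.168 in libraries of number 11, and the other 8 of the 9 genes kept their direction in all 22. The causes of these shifts were not tested, except that the fit of number 11 holds fewer libraries. With the name number as a term, the exposure estimate likewise rests on DE replicates 1 and 7 against FA, since no FA library carries 12. These 2 alternatives are thus the same contrast and not separate checks. No paired analysis was made, since the labels give no pairing of FA with DE animals.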
